A study of Homo sapiens with 10 samples.

Results

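The genes described here encode the ID proteins and the BMP-SMAD feedback components of A549 cells. They are ID1, ID2, ID3, ID4, BMP2, BMP4, SMAD6, SMAD7, SMAD9 and BAMBI, chosen by gene symbol from the array's annotation. All 10 were measured, on 14 of the 31332 spots that carry 1 gene symbol, out of 18334 genes in all. A549 cells, an established line from a human lung adenocarcinoma, were grown in rotating wall vessels (RWV), turning fluid-filled chambers that keep cells suspended at low shear (5 arrays), or as monolayers on a flat surface (5 arrays). Each array was hybridised with Cy3-labelled total RNA of a separate biological replicate. The same line and the same Dulbecco's medium with serum and glutamine were used throughout, and the labels name no drug and no altered gene. The growth text of the labels names RWVs for every sample, so the groups rest on the titles, and p-values measure the spread between these cultures of 1 line.

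BMPs are secreted ligands of the TGF-beta superfamily that assemble type I and type II receptor kinases. The receptors phosphorylate SMAD1, SMAD5 and SMAD9, which enter the nucleus with SMAD4 and switch on target genes, the ID genes being among the best known. ID proteins carry a helix-loop-helix domain without a DNA-binding region, and they hold E proteins such as TCF3 in inactive dimers. The pathway also induces its own brakes, the inhibitory SMAD6 and SMAD7 and the decoy receptor BAMBI, and BMP signals help to pattern the lung epithelium during development.

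Median spot intensity was 114 to 138 on RWV arrays and 122 to 184.5 on monolayer arrays before normalization, and precision is limited by there being 5 arrays in each group. Spots at 60000 or above are called saturated here. Of these, 89.3% to 93.1% on RWV arrays and 5.84% to 8.45% on monolayer arrays lay within 200 units of the highest value of the series, so for saturated spots the culture and the way bright spots were read out cannot be told apart. The epithelial keratins KRT8 and KRT18 were bright in both groups. Of the other epithelial markers, EPCAM averaged 549 in RWV and 1030 in monolayer (limma adjusted p = 0.11). CDH1 averaged 4543 in RWV and 2949 in monolayer (limma adjusted p = 0.25). All 4 endothelial markers measured were dim in both groups, dim meaning under a normalised intensity of 100 on all spots and arrays. Summed over 4 leukocyte markers the level was 189 to 251 in RWV and 192 to 323 in monolayer, and over 5 fibroblast markers it was 151 to 213 in RWV and 172 to 270 in monolayer. These sums overlap between the groups, and the part of such cells in the results was not tested. Of the alveolar type II markers, ABCA3 averaged 6002 in RWV and 2000 in monolayer (limma adjusted p = 2.6e-05), and SFTPB was dim in both groups. NKX2-1 averaged 34.3 in RWV and 70.7 in monolayer (limma adjusted p = 0.38). SFTPC averaged 139.4 in RWV and 167.2 in monolayer, and SFTPA1 33.4 and 27.8 (limma adjusted p = 0.42 and 0.55). Monolayer 4 stood apart for several of the genes described here, so values are also given without it.

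RWV cultures had lower ID3 and ID2, while ID1 did not pass the test and BAMBI was higher. ID3 kept its call in 24 of 24 alternative settings, and ID2 in only 15 of 24. The group means of BAMBI lay 2.98-fold apart, a lower bound only as to saturation of the RWV arrays. Its recorded log2 fold change fell from 1.57 to 1.13 without monolayer 4. SMAD9 was also higher, close to the dim level, and BMP4, SMAD6, SMAD7, ID4 and BMP2 did not pass the test. Hence 4 of 10 members passed at a limma adjusted p under 0.05, 2 of them higher and 2 lower in RWV. Over all 18334 genes 30.2% passed, 14.8% higher and 15.4% lower, so the share among the members is near the background. Without normalization between arrays the split over all genes was 1037 higher and 2518 lower, against 2708 and 2821 with it, with a median shift of -0.13. The median log2 fold change of the members was 0.02, beside 0.0037 over all genes. All RWV values lay above all monolayer values for 1 member, BAMBI (10.7% of all genes), and below them for 1, ID3 (12.3% of all genes), so that 2 of 10 members did not overlap, beside 23.1% of all genes. Unless stated otherwise, intensities are quantile-normalised values on a linear scale, changes are log2 fold changes of RWV over monolayer on the log2(intensity + 50) scale given ± the fit's standard error, and p-values are from limma with Benjamini-Hochberg adjustment over all genes, with 5 arrays in each group.

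**Figure D1:**
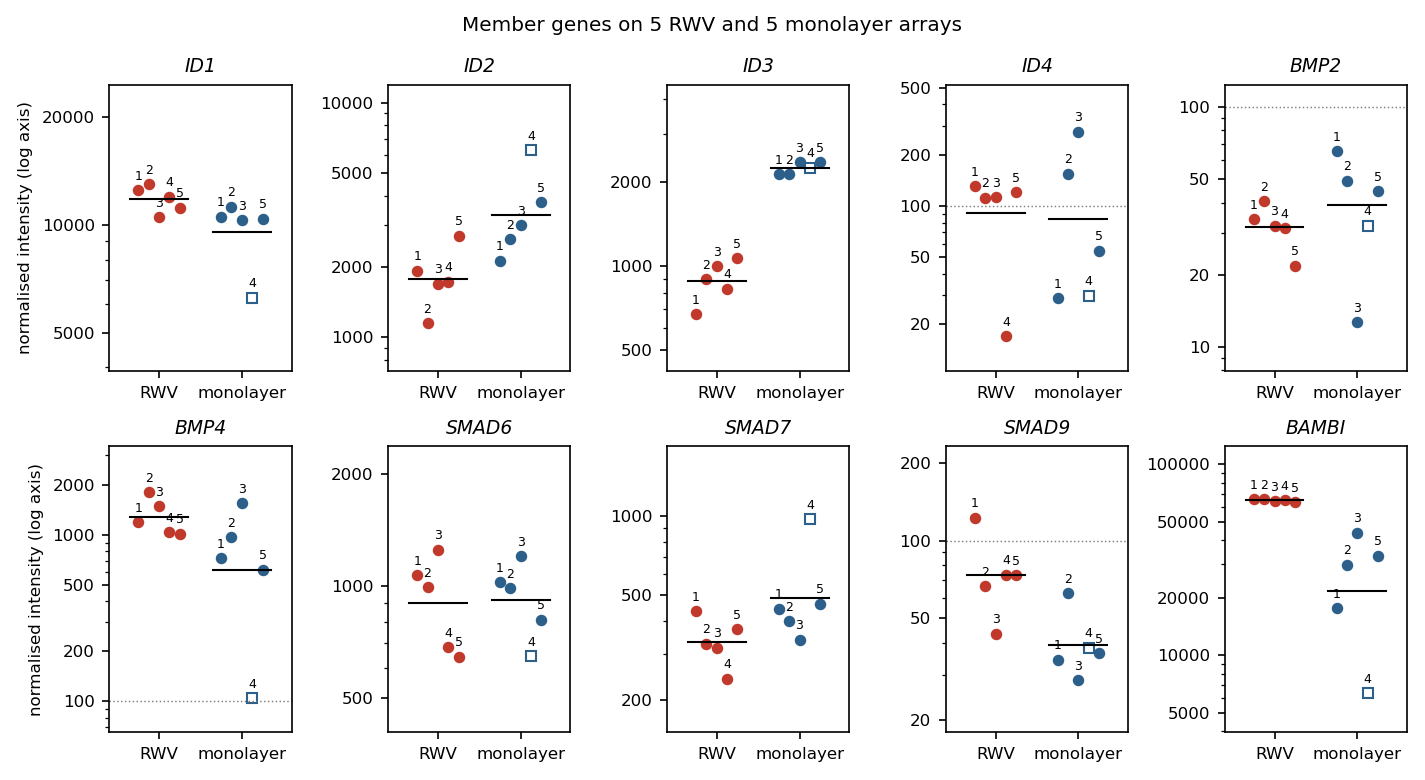
Normalised intensity (log axis, 1 panel per gene with its own range) of the 10 member genes on each RWV array (left, red) and each monolayer array (right, blue), averaged over the spots of a gene. Numbers give the replicate, black lines the group mean on the log2 scale, open squares monolayer 4, and the dotted grey line an intensity of 100. ID3 and BAMBI are the genes whose groups do not overlap, and monolayer 4 is the lowest of all arrays for ID1, BMP4 and BAMBI and the highest for ID2 and SMAD7.

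The promoter windows of ID1, ID2, ID3 and BAMBI are shown because the results below turn on these genes, and each runs from 250 bases before to 50 after the annotated start (RefSeq, GRCh38.p14). Capitals mark matches on either strand to motifs that SMAD proteins are known to bind, namely CAGAC, the palindrome GTCTAGAC, GGCGCC and GCCGNCGC. The ID1 window is chr20:31605039-31605338 (plus strand), that of ID2 is chr2:8681806-8682105 (plus strand), that of ID3 is chr1:23559452-23559751 (minus strand) and that of BAMBI is chr10:28677271-28677570 (plus strand).
ID1: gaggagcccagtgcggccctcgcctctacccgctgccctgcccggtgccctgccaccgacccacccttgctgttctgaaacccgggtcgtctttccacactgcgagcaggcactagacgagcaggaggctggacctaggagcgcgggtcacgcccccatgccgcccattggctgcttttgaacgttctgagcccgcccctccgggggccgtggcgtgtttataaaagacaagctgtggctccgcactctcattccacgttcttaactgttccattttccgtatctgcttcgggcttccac
ID2: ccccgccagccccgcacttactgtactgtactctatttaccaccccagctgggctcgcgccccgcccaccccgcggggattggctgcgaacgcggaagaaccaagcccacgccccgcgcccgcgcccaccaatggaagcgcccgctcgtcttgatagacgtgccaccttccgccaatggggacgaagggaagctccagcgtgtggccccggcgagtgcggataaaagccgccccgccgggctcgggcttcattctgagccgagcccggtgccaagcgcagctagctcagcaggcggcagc
ID3: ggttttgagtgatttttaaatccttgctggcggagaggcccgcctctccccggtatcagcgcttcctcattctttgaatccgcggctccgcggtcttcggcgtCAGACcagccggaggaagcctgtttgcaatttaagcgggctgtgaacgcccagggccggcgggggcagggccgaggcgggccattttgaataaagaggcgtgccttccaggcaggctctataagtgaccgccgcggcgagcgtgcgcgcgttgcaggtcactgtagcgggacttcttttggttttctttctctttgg
BAMBI: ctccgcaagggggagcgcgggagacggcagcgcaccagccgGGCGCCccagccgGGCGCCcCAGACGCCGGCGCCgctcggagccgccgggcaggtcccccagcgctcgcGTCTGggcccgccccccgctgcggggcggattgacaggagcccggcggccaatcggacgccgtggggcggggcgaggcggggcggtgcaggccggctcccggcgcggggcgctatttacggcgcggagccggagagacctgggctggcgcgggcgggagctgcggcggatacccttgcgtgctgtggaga
The ID1 and ID2 windows held no match. The ID3 window held 1 CAGAC, at position -147 from the start. The BAMBI window held 2 matches to CAGAC, 3 to GGCGCC and 1 to GCCGNCGC, which overlaps a GGCGCC. Among all 35116 windows of the RefSeq table, 45.3% held CAGAC, 19.2% held GGCGCC, 16.8% held GCCGNCGC and 0.202% held GTCTAGAC. At least 3 matches to GGCGCC were found in 0.871% of windows. The rare palindrome lay in the window of 1 member, SMAD6, starting at position -12, in this stretch at chr15:66702213-66702242 (plus strand).
SMAD6: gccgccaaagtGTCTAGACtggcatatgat
A match is a description of the letters only, and 9 of the 10 members had a window in the table.

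ID3, an inhibitor of bHLH factors expressed in many dividing cells, fell on both of its spots. The spot designed on the RefSeq transcript had intensities of 3729, 4071, 4366, 3476 and 3899 on RWV arrays 1 to 5, against 9223, 10365, 10845, 7957 and 9023 on monolayer arrays 1 to 5. The highest RWV array stayed well below the lowest monolayer array. The other spot gave 87.6, 167.6, 198.9, 168.8 and 265.8 on the RWV arrays and 469.8, 411.2, 487.8, 617 and 593.9 on the monolayer arrays, again without overlap. The log2 fold change of the gene was -1.31 ± 0.12 (adjusted p = 3.7e-05), with -1.26 ± 0.12 and -1.35 ± 0.20 for the single spots. By p-value ID3 ranked 98th of the 18334 genes. Without monolayer 4 its change was the same to 2 decimals, at -1.31 ± 0.13. It was -1.34 among arrays numbered 1 to 3 and -1.25 among those numbered 4 and 5. These sets of arrays differ at both the lower and the upper end of their intensities. Saturated spots numbered 445 to 528 on monolayer 1 to 3, and 866 and 840 on monolayer 4 and 5. They numbered 422 to 487 on RWV 1 to 3, and 666 and 823 on RWV 4 and 5.

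ID2, an ID protein that is also known to bind the RB family, fell too, with a wider spread. Its first spot had intensities of 2124, 1269, 1797, 2080 and 2984 on RWV arrays 1 to 5, against 2305, 3103, 3449, 6851 and 3808 on monolayer arrays 1 to 5. Its second spot had 1738, 1047, 1597, 1432 and 2471 in RWV, against 1954, 2224, 2608, 5777 and 3719 in monolayer. On both spots RWV 5 exceeded the lowest monolayer arrays, so the groups overlapped. The gene averaged 1776 in RWV and 3311 in monolayer, and its log2 fold change was -0.88 ± 0.28 (adjusted p = 0.032). Monolayer 4 had the highest value of all arrays, and without it the change was -0.65 ± 0.23 and missed the threshold (adjusted p = 0.052). The call was also lost without monolayer 5 (adjusted p = 0.069) and without RWV 1, 2, 3 or 4 (adjusted p = 0.053, 0.079, 0.056 and 0.062), with the change at -0.91 to -0.73. Without normalization between arrays the change was -1.16 (adjusted p = 0.071). It was -0.70 among arrays 1 to 3 (adjusted p = 0.071) and -1.15 among arrays 4 and 5 (adjusted p = 0.12).

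ID1, the ID gene most often used as a readout of BMP signals, did not pass the test. Its spot on the RefSeq transcript had 64780, 64859, 63431, 65044 and 64584 on the RWV arrays, against 63873, 64680, 62825, 41469 and 63765 on the monolayer arrays. Taken before normalization, it was saturated on 5 of 5 RWV arrays and 3 of 5 monolayer arrays. Monolayer 4 had 58357 there before normalization, beside 59612 on monolayer 3, so its gap on this spot was much smaller then. The other spot was not saturated and had intensities of 2388, 2568, 1703, 2180 and 1899 on the RWV arrays, against 1701, 1917, 1662, 907.5 and 1667 on the monolayer arrays. RWV 3 and RWV 5 lay below monolayer 2, so the groups overlapped, and the lowest array was monolayer 4. Over both spots the log2 fold change was 0.30 ± 0.15 (adjusted p = 0.17, 95% interval -0.04 to 0.64). Without the saturated spot it was 0.47 ± 0.19 (adjusted p = 0.088), and without monolayer 4 it was 0.15 ± 0.10 (adjusted p = 0.30).

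ID4, the ID gene known chiefly from the nervous system and mammary gland, was near the dim level. It had 131.5, 112.6, 113.1, 17 and 121.6 in RWV, against 28.7, 155.9, 276.4, 29.6 and 54.7 in monolayer. RWV 4 lay below every other array, while the other RWV arrays lay close together within the monolayer range. The log2 fold change was 0.07 ± 0.41 (adjusted p = 0.93, 95% interval -0.83 to 0.96). Without RWV 4 it was 0.33 ± 0.38 (adjusted p = 0.59).

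The unequal change of the ID genes was tested on the within-array difference of their log2 values, with an exact two-sided permutation test over the 252 assignments of arrays and adjustment over the 10 pairs of related members compared. The change of ID1 exceeded that of ID3 by 1.61 on the log2 scale (exact p = 0.0079, the smallest these assignments allow, adjusted p = 0.040). That value averages in the saturated ID1 spot, whose change has no measured size. With the unsaturated ID1 spot alone the difference was 1.77, with the same exact permutation p and adjusted p. These adjusted p lie under 0.05 only because the pair of SMAD7 and SMAD9 had the same exact permutation p. SMAD9 was dim in monolayer and nothing is read from that pair, so the call of ID1 against ID3 does not stand alone. ID1 against ID2 differed by 1.18, and by 1.35 with the unsaturated spot, and neither passed after adjustment (exact permutation p = 0.024, adjusted p = 0.079 for both). ID2 and ID3 could not be told apart by this test, with a difference of 0.43 (exact permutation p = 0.21, adjusted p = 0.27), and neither could ID4 be set apart from ID3 (difference of ID3 minus ID4 -1.37, exact permutation p = 0.040, adjusted p = 0.099). The adjusted p of ID1 against ID3 depends on the exact p of the other pairs too. It was 0.060 without normalization between arrays (difference 1.67). With scaling to the 75th percentile or a pseudocount of 20 it was 0.079 (difference 1.69 for both). It was 0.053 to 0.079 without any 1 of the RWV arrays or without monolayer 4, and the difference stayed between 1.46 and 1.69 there.

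**Figure D2:**
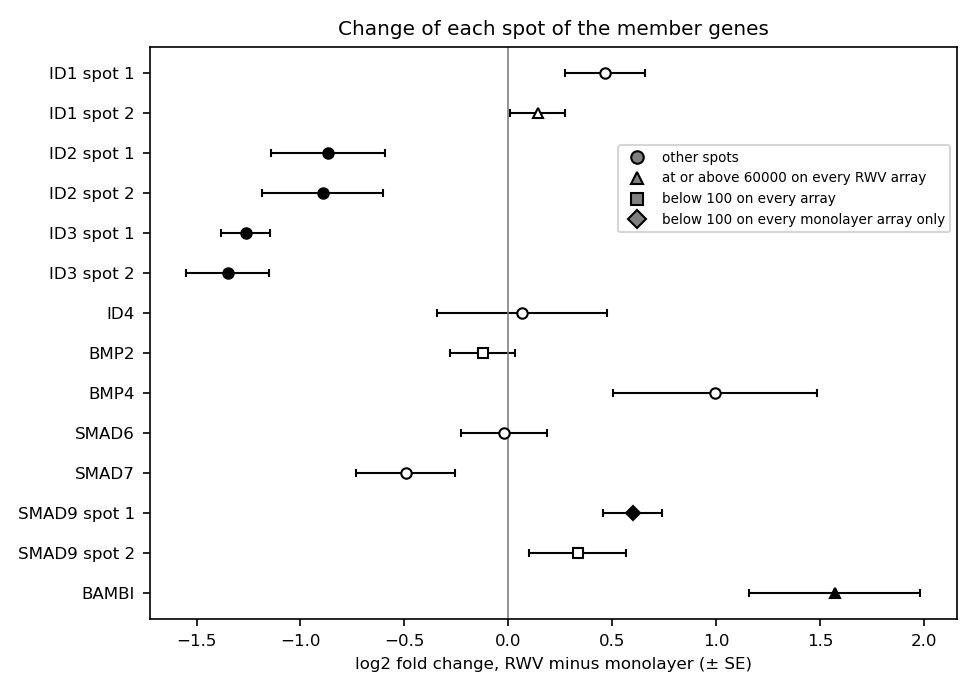
Log2 fold change of RWV over monolayer for each of the 14 spots of the member genes, with bars for the standard error of the limma fit on single spots (5 arrays per group). Filled symbols passed at an adjusted p under 0.05 over all spots, and symbol shape marks saturated and dim spots, whose fitted values are not fold changes of known size. Both spots of ID2 and of ID3 lie left of 0, between -0.87 and -1.35, while both ID1 spots lie right of it without passing.

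Among the ligands, BMP4 was measured well above the dim level and BMP2 was not. BMP4, a ligand that the developing lung epithelium makes at its growing tips, had 1193, 1800, 1487, 1042 and 1014 on the RWV arrays, against 722.6, 971.4, 1553, 104.2 and 618.5 on the monolayer arrays. Monolayer 3 lay within the RWV range, and monolayer 4 lay far below all others. The log2 fold change of 1.00 ± 0.49 did not pass the test (adjusted p = 0.16, 95% interval -0.08 to 2.07). Without monolayer 4 it was 0.47 ± 0.25 (adjusted p = 0.21), and without monolayer 3 it was 1.31 ± 0.46 (adjusted p = 0.053). With the replicate number, or arrays 1 to 3 against 4 and 5, as a block the adjusted p was 0.081 and 0.079. The change was 0.49 among arrays 1 to 3 and 1.75 among arrays 4 and 5. BMP2, a close relative, was dim on every array, at 21.8 to 40.6 in RWV and 12.7 to 65.5 in monolayer, and no fold is given. For the same reason its change is not set against that of BMP4.

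The feedback inhibitors did not move as a group. BAMBI, a transmembrane pseudoreceptor that lacks the kinase domain and dampens BMP and TGF-beta signals, had 65470, 65339, 63873, 64878 and 63287 on the RWV arrays, against 17577, 29771, 43649, 6310 and 33207 on the monolayer arrays. All 5 RWV arrays were saturated and no monolayer array was, so the ratio of group means, 2.98-fold, is a lower bound as to saturation only. The log2 fold change as recorded was 1.57 ± 0.41 (adjusted p = 0.013, 95% interval 0.67 to 2.47). The saturated RWV values hardly vary (standard deviation 0.02 on the log2 scale, against 1.10 in monolayer). The standard error, adjusted p and interval thus describe the recorded values only, and 2.47 is no upper limit of the change. Without monolayer 4, the lowest array, the recorded change was 1.13 ± 0.21 (adjusted p = 0.0023). Among arrays 1 to 3 it was 1.19 (adjusted p = 0.038), and among arrays 4 and 5 it was 2.14 and missed the threshold (adjusted p = 0.16). The spot is left out when saturated spots are removed, so no value of BAMBI free of saturation exists here.

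SMAD6, the inhibitory SMAD that acts mainly on BMP receptors, had 1069, 990.6, 1250, 684.1 and 645 in RWV, against 1023, 983.3, 1200, 647 and 809.3 in monolayer. The arrays of both groups covered nearly the same range, with arrays 4 and 5 the lowest in each, and the log2 fold change was -0.02 ± 0.20 (adjusted p = 0.95, 95% interval -0.46 to 0.42). SMAD7, which blocks both BMP and TGF-beta receptors, had 433.9, 327, 315.9, 240.6 and 370.6 in RWV, against 443.9, 397.6, 338.9, 973.2 and 464.5 in monolayer. Monolayer 4 exceeded every other array of both groups. The log2 fold change of -0.49 ± 0.24 did not pass (adjusted p = 0.14, 95% interval -1.01 to 0.02), and it was -0.26 ± 0.15 without monolayer 4 (adjusted p = 0.24). It was -0.12 among arrays 1 to 3 and -1.05 among arrays 4 and 5.

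SMAD9, a BMP-activated SMAD and itself a BMP target with weak activity, was higher in RWV but close to the dim level. Its RefSeq spot had 159.6, 120.8, 83.2, 102.8 and 85 on the RWV arrays, against 60.8, 58.1, 57.7, 58.7 and 37.9 on the monolayer arrays, without overlap. The other spot was below 100 on all 10 arrays, at 15.4 to 92.7 in RWV and 7.4 to 66.7 in monolayer. Over both spots the gene passed as higher (adjusted p = 0.043). As it averaged 73.4 in RWV and 39.3 in monolayer, both below the dim level, no fold is given. The call was lost without any 1 of RWV 1, 2, 4 and 5 or monolayer 1, 3, 4 and 5 (adjusted p 0.062 to 0.091). It was also lost without normalization between arrays (adjusted p = 0.12), with 75th percentile scaling (adjusted p = 0.069) with the replicate number as a block (adjusted p = 0.051) and with arrays 1 to 3 against 4 and 5 as a block (adjusted p = 0.052).

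The changes of SMAD6 and SMAD7 differed by 0.47, which did not pass (exact permutation p = 0.33, adjusted p = 0.37). SMAD9 was dim in monolayer, so no size is given for its difference in change from SMAD6 or SMAD7, and nothing is read from those 2 pairs.

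**Figure D3:**
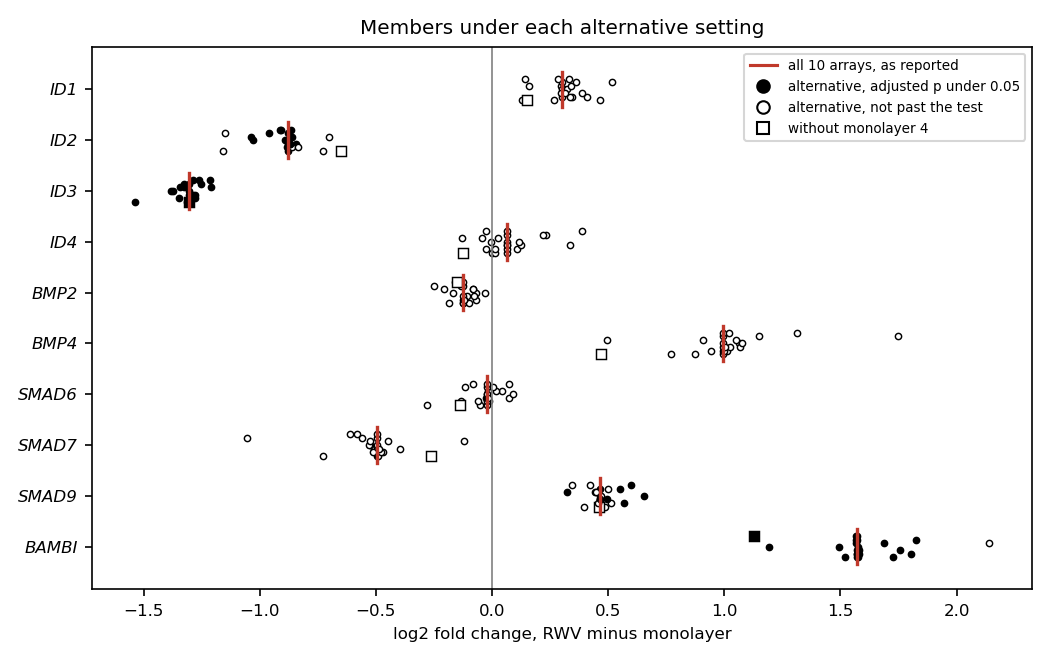
Log2 fold change of RWV over monolayer for each member with all 10 arrays (red line) and under each alternative processing or left-out array (circles, filled where the adjusted p was under 0.05), with squares for the fit without monolayer 4. ID3 lies between -1.54 and -1.21 and passed under all 24 alternatives, while ID1, ID4, BMP2, BMP4, SMAD6 and SMAD7 passed under none.

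Of the other genes of the pathway, 98 were listed in 9 groups by role, and 92 were measured. In RWV 9 passed as higher and 10 as lower, where 14.8% and 15.4% of all genes did, and 26 of the 92 were dim in both groups. Their median log2 fold change was -0.07. Among arrays 1 to 3 alone BMP3, ACVRL1, CHRD, CHRDL2, WWP1, HEY1, DLX1 and TCF3 missed the threshold (adjusted p 0.061 to 0.28). Among arrays 4 and 5 alone CHRD, CHRDL2, TBX2, TGFBR2 and PMEPA1 still passed and the other genes called with all arrays did not. The lists were written from textbook knowledge with earlier results of these data known.

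Of 10 BMP receptors and co-receptors measured, 4 passed as higher and none as lower, beside 14.8% and 15.4% of all genes, and their median log2 fold change was 0.18. ACVR1 (ALK2), a type I BMP receptor, had 1407, 1554, 940.8, 1258 and 1552 in RWV, against 572.1, 641.1, 785.4, 660.5 and 751.8 in monolayer, and rose by 0.91 ± 0.15 (adjusted p = 0.00069). All RWV arrays lay above all monolayer arrays. The co-receptor RGMB rose by 0.92 ± 0.19 (adjusted p = 0.0028), with means of 462.7 in RWV and 220.3 in monolayer. BMPR1B (ALK6), another type I receptor, rose by 0.74 ± 0.20 (adjusted p = 0.016), with 657.2 in RWV and 374.2 in monolayer. ACVRL1 (ALK1), best known from endothelium, passed as well (adjusted p = 0.030), but it averaged 63.6 in RWV and 35.8 in monolayer, below the dim level, and lost the call without RWV 2, RWV 4 or monolayer 1, 4 or 5 (adjusted p 0.050 to 0.079). The type II receptor BMPR2 did not pass, at 174.7 in RWV and 189 in monolayer. Without normalization between arrays all 4 kept their direction and missed the threshold (adjusted p 0.079 for ACVR1, 0.080 for RGMB, 0.073 for BMPR1B and 0.19 for ACVRL1), and ACVRL1 did so with 75th percentile scaling too (adjusted p = 0.11).

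In the TGF-beta and activin arm, 2 of 10 ligands and receptors rose and none fell, a share near the 14.8% of all genes that were higher, and the median was 0.07. TGFBR2, the type II TGF-beta receptor, had 4252, 2995, 3859, 3559 and 3572 in RWV, against 1223, 1309, 1931, 709.9 and 1264 in monolayer, and rose by 1.52 ± 0.21 (adjusted p = 0.00027). Its lowest RWV array exceeded its highest monolayer array. TGFBR3 (betaglycan), the co-receptor that presents TGF-beta ligands, rose by 0.92 ± 0.18 (adjusted p = 0.0027), with 360.1 in RWV and 167.3 in monolayer.

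Among the SMADs and the TGF-beta targets the shares that fell were near the 15.4% of all genes that were lower. Of 5 further SMADs 1 fell, SMAD3, the transducer of TGF-beta and activin, by 0.64 on the log2 scale (SE 0.18, adjusted p = 0.016, lower on 11 of 11 spots), and the median was -0.18. SMAD1, SMAD5 and SMAD4 did not pass, with log2 fold changes of -0.25 ± 0.11, 0.03 ± 0.29 and -0.05 ± 0.11. Without normalization between arrays the change of SMAD3 was -0.93 and missed the threshold (adjusted p = 0.069). Of 9 TGF-beta target genes measured 2 fell and none rose, with a median of -0.15. PMEPA1, a target that holds back receptor-activated SMADs, had 3437, 2784, 4991, 3208 and 3288 in RWV, against 6991, 7732, 7854, 24222 and 12892 in monolayer, a log2 fold change of -1.59 ± 0.31 (adjusted p = 0.0022). Every RWV array was below every monolayer array, and without monolayer 4 the change was -1.30 ± 0.20. It was -1.04 among arrays 1 to 3 and -2.43 among arrays 4 and 5, past the test in both. COL4A1, a basement membrane collagen chain, passed as lower, with a recorded log2 fold change of -0.98 (SE 0.18, adjusted p = 0.0014). As means over 3 spots it had 40.8 in RWV and 129.4 in monolayer. The RWV mean lies below the dim level, though not all spots were dim there, so the recorded change has no certain size. On its brightest spot alone the change was -2.35 (adjusted p = 0.00078), so the size depends on the spots averaged.

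Of 12 other BMP target genes 1 rose and 2 fell, beside 14.8% higher and 15.4% lower over all genes, with a median of -0.03. HEY1, a bHLH repressor that Notch signals also induce, rose by 1.27 ± 0.28 (adjusted p = 0.0047), with 468 in RWV and 164.3 in monolayer. RWV 3, at 229.8, lay below monolayer 5, at 255.9, so the groups overlapped. TBX2, a T-box repressor, fell by 1.04 (SE 0.19, adjusted p = 0.0015), with 216.1 in RWV and 498.2 in monolayer. The homeobox gene DLX1 passed as lower (adjusted p = 0.029), at 41.4 in RWV, where it was dim, and 88.3 in monolayer, so no fold is given. It lost the call without RWV 1, RWV 4 or monolayer 1 and with the replicate block (adjusted p 0.064 to 0.072). Of 9 bHLH partners of the ID proteins 1 fell, beside 15.4% of all genes, with a list median of -0.06. This was TCF3, the E2A gene, which fell by 0.42 (SE 0.12, adjusted p = 0.019), with 4104 in RWV and 5522 in monolayer. It missed the threshold without normalization between arrays (adjusted p = 0.069) and on its brightest spot alone (adjusted p = 0.11).

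The remaining lists were mixed. Their counts stand beside 14.8% higher and 15.4% lower over all genes, and no count is read as a result about a list. Of 14 secreted BMP antagonists 1 rose and 1 fell, with a median of -0.02. Chordin (CHRD), which traps BMPs outside the cell, averaged 303.4 in RWV and 137 in monolayer and rose by 0.92 ± 0.29 (adjusted p = 0.029). RWV 3, at 107.9, lay below every monolayer array, and the call was lost without RWV 1, 4 or 5 or monolayer 1, 2 or 5 (adjusted p 0.053 to 0.070), as it was without normalization between arrays (adjusted p = 0.091). Its brightest spot alone gave 1.65 (adjusted p = 0.0095). The chordin relative CHRDL2 passed as lower (adjusted p = 0.0034), at 28.8 in RWV, where it was dim, and 88.5 in monolayer, so no fold is given. Of 12 intracellular regulators 1 rose and 2 fell, with a median of -0.09. The ubiquitin ligase WWP1 rose by 0.53 ± 0.15 (adjusted p = 0.020) and was not past the test without RWV 2 or monolayer 1 (adjusted p 0.051 and 0.052), nor without normalization between arrays (0.25, adjusted p = 0.47). NEDD4L, another ligase of that family, fell by 0.59 (SE 0.13, adjusted p = 0.0039), though its brightest spot gave -0.19 (adjusted p = 0.67). FKBP1A, which keeps type I receptors from signalling without ligand, fell by 0.52 (SE 0.11, adjusted p = 0.0031), with -0.41 on its brightest spot (adjusted p = 0.12). Of 11 further BMP ligands 1 passed, BMP3, which was dim in both groups (12.9 in RWV and 33.4 in monolayer, adjusted p = 0.022), and the list median was -0.20. Its call was lost without RWV 1, RWV 2 or monolayer 3 (adjusted p 0.050 to 0.052).

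**Figure D4:**
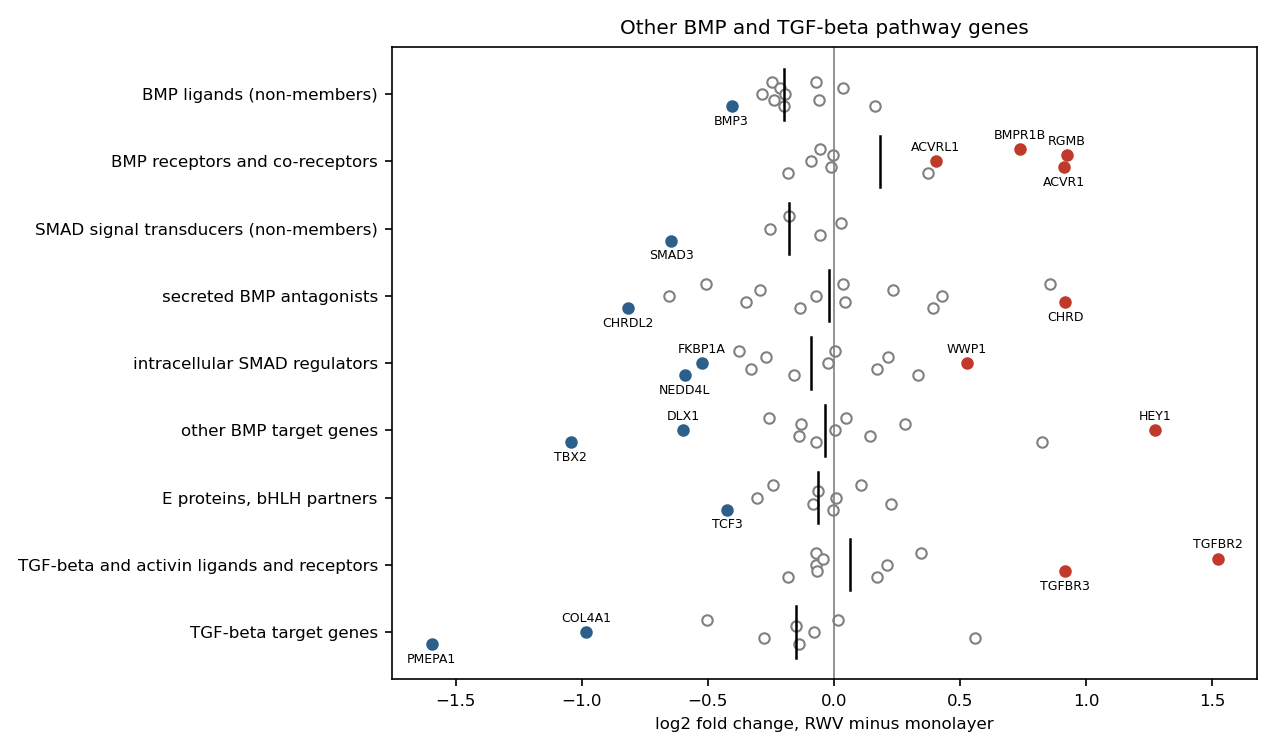
Log2 fold change of RWV over monolayer for the 92 measured pathway genes outside the members, grouped by role, with filled and named points for genes at an adjusted p under 0.05 (red higher, blue lower), open points for the others and a black bar for the list median. The fitted values of genes dim in a group (BMP3, ACVRL1, CHRDL2 and DLX1 among those named) are not fold changes of known size. COL4A1 averaged below the dim level in RWV without being dim on all spots. Receptors lie to the right where they passed, up to TGFBR2 at 1.52, and PMEPA1 lies farthest left at -1.59.

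By the pattern over the 10 arrays after subtracting each group's mean, the genes most like ID1 among 13679 others above the dim level in a group were GALK2, CTSL and THSD4, each with a Pearson r of 0.98. CTSL averaged 59450 in RWV and 56233 in monolayer and, like ID1, had a spot saturated on at least 1 array. The points share their arrays and the normalization, and after normalization monolayer 4 is far below the others for ID1. Without it the coefficients were 0.93, 0.81 and 0.87 over 9 arrays.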

How the data were processed

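Total RNA of 10 A549 cultures was extracted with a silica column, labelled with Cy3 by linear amplification and hybridised to 1-colour arrays, per the labels' protocols. The authors deposited 45220 intensities per array, linear whole numbers from -66 to 65493. Some are below 0, so background appears to have been subtracted, and no normalization between arrays is visible. Scanner and software: not given in the sources used here. Spots were named through the platform annotation, 31332 with 1 symbol, 93 with several and 13795 (30.5%) without one used here, and symbols were checked against RefSeq GRCh38.p14 by gene number.

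Spots with 1 symbol were quantile normalised, floored at 0, increased by a pseudocount of 50 and taken to log2. Spots of a gene were averaged, and groups were compared with limma 3.58.1 (lmFit, eBayes) in R 4.3.3, tested on simulated data, with tables read by the package data.table, version 1.17.8. Means are back-transformed from that scale. Python 3.11.15 with pandas 2.3.3 and matplotlib 3.10.9 drew the figures. A gene with all spots on all arrays of a group under 100 was called dim there, and one at or above 60000 saturated. Such groups give only a bound, a ratio of means of log2 intensities without the pseudocount. No 2 arrays had more than 1.46% of spots equal. Alternatives included other normalizations and pseudocounts, left-out arrays, and fits with the replicate number, or arrays 1 to 3 against 4 and 5, as a block. The members and lists were chosen with earlier results of these data known. Outside the members, up to 4 genes of a list with the largest change among those past the test are named, or else the one with the lowest p, and the 3 genes most correlated with ID1 over the arrays. BMPR2, SMAD1, SMAD4 and SMAD5 lie outside this rule and were chosen after their values were seen.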

Additional observations from a re-analysis of the deposited data

Results flagged for a closer look

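A single array stood far from the other 4 of its group, by Dixon's test at the 95% level, in 4 of the 58 groups of values examined, and chance flags about 1 in 20. Monolayer 4 accounted for 3 of these. Its ID1 intensity after normalization was 6255.1, where the other monolayer arrays lay between 10325 and 11235. That value averages in the bright RefSeq spot, deposited at 58357 on monolayer 4 and 59612 on monolayer 3. Normalization took these to 41469 and 62825, so the size of the ID1 gap depends on it. For SMAD7 monolayer 4 had 973.2, where the others lay between 338.9 and 464.5. For BMPR1B it had 206.5, where the others lay between 398.8 and 469.5. RWV 4 had 17 for ID4, with the rest of the RWV arrays at 112.6 to 131.5.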

How the results depend on the processing

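With all arrays 5529 genes, 4 members, 19 genes of the wider lists and 2 of 10 pairs passed. Of the pairs, SMAD7 and SMAD9 held a gene dim in monolayer, and ID1 and ID3 passed the adjustment only together with that pair. Without normalization between arrays these counts were 3555, 2, 11 and 0. Scaling to a common 75th percentile and a pseudocount of 20 each left 0 pairs. Among arrays 1 to 3 the counts were 3056, 2, 11 and 0, the exact test of a pair being unable to pass with 3 arrays in each group. Among arrays 4 and 5 they were 1056, 1 and 7, with too few arrays for the pairs. Leaving out 1 array in turn gave 4484 to 5643 genes, 2 to 4 members, 15 to 24 genes of the wider lists and 0 to 3 pairs. With the replicate number as a block 5399 genes, 3 members and 21 genes of the wider lists passed. Arrays of the same number deviated together with correlations of -0.15 to 0.22, so the numbers are not taken to pair the cultures. None of the 4 called members or the 19 called genes of the wider lists changed sign under the alternatives run, while ID4 (-0.13 to 0.39) and SMAD6 (-0.28 to 0.09), which did not pass, took both signs. ID3 kept its call in 24 of 24 alternatives, BAMBI in 22 of 23, ID2 in 15 of 24 and SMAD9 in 10 of 24. Quantile normalization over all spots, chosen after seeing the data, gave 5526 genes and 4 members. The cause of these shifts was not tested. Signal limits ID4, BMP2 and SMAD9, which lie near or below the dim level, and saturation limits BAMBI and ID1.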
